A study of Homo sapiens with 6 samples.

Results

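The genes described here encode the enzymes and regulators of cholesterol and fatty acid synthesis that the SREBP transcription factors control. They were taken from a list of 33 symbols, and a gene was a member if it had a probe set annotated with its symbol alone. Of the 33, 31 were measured, among 18132 genes in all: 19 of 21 in the sterol branch and 12 of 12 in the fatty acid branch. FDFT1 and CYP51A1 are not analysed here. CYP51A1 was covered by 2 probe sets, both shared with other symbols.

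The arrays hold RNA of A549, an established human lung adenocarcinoma cell line grown in DMEM with serum. The 3 control arrays carry RNA of cells given a scrambled sequence, and the 3 knockdown arrays RNA of cells in which the long noncoding RNA LINC00525 was silenced. Titles begin with sh in both groups, although the protocol describes small interfering RNA. No time after treatment is given, nor whether replicates were separate cultures, and the p-values therefore reflect the scatter of these arrays, possibly of technical origin. For knockdown replicate 2 the genotype label reads LINC00526, and for replicate 3 LINC00527, whereas the titles of all 3 knockdown arrays read LINC00525. With RNA of whole cultures, a change in the number of cells that express a gene and a change in RNA per cell cannot be told apart.

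SREBP proteins are made as membrane precursors in the endoplasmic reticulum. When sterols are low, the escort protein SCAP carries them to the Golgi apparatus, where proteases release the part that enters the nucleus. INSIG proteins hold SCAP back when sterols are plentiful, and INSIG1 is itself an SREBP target. SREBP2, from SREBF2, is known mainly for genes of cholesterol synthesis and uptake, and SREBP1, from SREBF1, mainly for genes of fatty acid synthesis. Cancer cells often rely on this synthesis for new membrane.

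LINC00525 read 3.86, 3.74 and 3.97 log2 units on control replicates 1, 2 and 3 and 3.67, 3.45 and 3.54 on the knockdown arrays. The groups did not overlap, and the gene fell by 0.30 ± 0.075 (SE, limma adjusted p = 0.0372). Its signal was close to background, with 1 of 17 Tag control probe sets (designed to bind no human RNA) above its control mean. All 31 pathway genes had a control mean above every Tag probe set. Of the epithelial markers, KRT8, KRT18, KRT19, CDH1 and EPCAM were all above the Tag range, and KRT19 rose and KRT8 fell. Among the lung lineage markers, NKX2-1, SFTPB, SFTPC and NAPSA were above the Tag range, and SCGB1A1 had 6 of the 17 Tag probe sets above it. For the leukocyte markers PTPRC and LYZ the number was 16 and 14. The leukocyte markers CD3E and CD14, with control means of 4.64 and 6.25, were above the Tag range. The 3 arrays of a group correlated at 0.9983 to 0.9988.

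Small changes in opposite directions were seen within the pathway. The genes that rose on the knockdown arrays were STARD4 (1.29-fold), ACSS2 (1.23-fold), INSIG1 (1.20-fold) and HMGCS1 (1.13-fold). These rises are relative to a typical gene, and scaling to the bacterial hybridization controls turned INSIG1 (-0.015) and HMGCS1 (-0.10) slightly below 0 in log2 units. GPAM (1.28-fold), SREBF1 (1.22-fold) and ME1 (1.16-fold) fell. In all, 7 of 31 members (22.6%) passed the limma threshold of an adjusted p under 0.05, against 12.6% of all genes. Rises were 4 of 31 (12.9%) against 5.77% of all genes, and falls 3 of 31 (9.68%) against 6.83%. The split depends on the scaling: it was 4 rises and 2 falls after cyclic loess, 1 and 23 when scaled to the poly-A controls (49.1% of all genes called), and 0 and 23 when scaled to the hybridization controls (84.5% of all genes called). Those scalings lower every gene by 0.141 and 0.281, and changes are given here relative to a typical gene. Hybridization control signal itself was 0.281 higher on the knockdown arrays (9.50 against 9.22), and its part in the results was not tested. The median log2 difference of the members was -0.067, and that of all genes -0.013. The median control mean was 8.57 log2 units for the members and 5.62 for all genes.

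The sterol and fatty acid branches were set side by side by their counts and medians. In the sterol branch 3 of 19 genes rose, 0 fell and 16 did not pass, with a median log2 difference of -0.027 and a range of -0.15 to 0.37. With INSIG1, SREBF2 and STARD4 set aside, 1 of its 16 enzymes rose (6.25%) and 0 fell, with a median of -0.042. In the fatty acid branch 1 of 12 rose, 3 fell and 8 did not pass, with a median of -0.115 and a range of -0.36 to 0.30. With SREBF1 set aside its median was -0.103. The share called was 15.8% in the sterol branch, 33.3% in the fatty acid branch and 12.6% among all genes. At an unadjusted limma p under 0.05, 6 sterol genes were higher and 3 lower, and 1 fatty acid gene was higher and 6 lower. Among all 18132 genes these numbers were 2009 and 2805. A negative difference was found for 11 of the 12 fatty acid genes (91.7%), for 12 of the 19 sterol genes (63.2%) and for 55.1% of all genes. The knockdown arrays lay wholly below the control arrays for 8 of 12 fatty acid genes (66.7%) and 3 of 19 sterol genes (15.8%), and for 17.9% of all genes. They lay wholly above for 1 fatty acid gene and 4 sterol genes, and for 12.9% of all genes. Taking both directions, 16 of the 31 members did not overlap between groups (51.6%), against 30.8% of all genes. These counts describe the branches, and no test of the difference between them was made, because the members were chosen with earlier results of these data known. The shares of all genes include many of low signal, and genes of like signal were not set beside the branches here. When only genes above the median signal were tested, 34.9% of them were called, and 14 of 30 members.

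**Figure D1:**
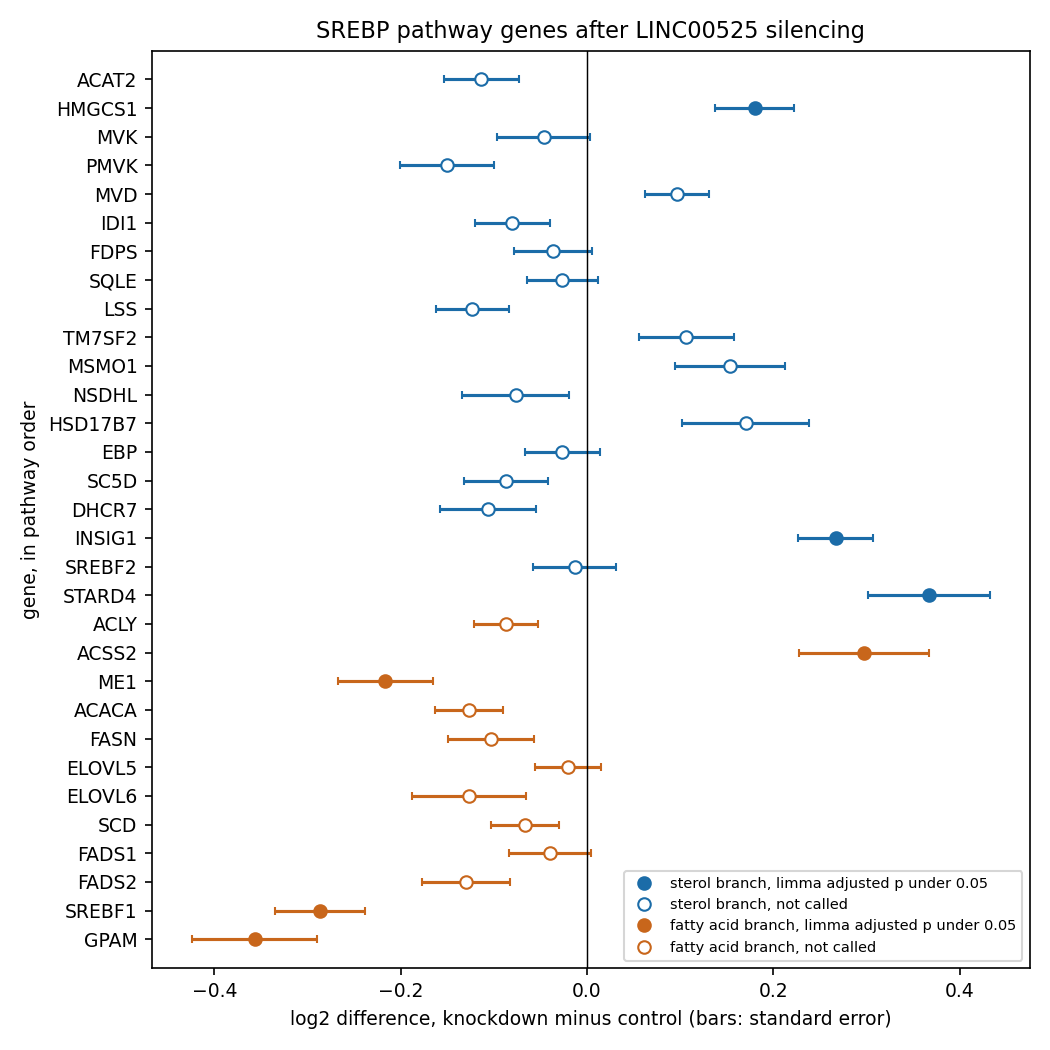
Log2 difference of knockdown minus control (horizontal axis) for the 31 measured genes in pathway order, sterol branch in blue and fatty acid branch in orange, with standard errors as bars and filled points for limma adjusted p under 0.05. STARD4 at 0.37 and GPAM at -0.36 are the extremes, and 11 of the 12 orange points lie left of 0; scaled to the hybridization controls, INSIG1 and HMGCS1 also lie left of 0.

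To follow the branches by array, each gene was set relative to its control mean, and the median over the branch was taken on each array. For the fatty acid branch this median was -0.018, 0.030 and -0.008 on control replicates 1, 2 and 3 and -0.130, -0.120 and -0.077 on the knockdown arrays. For the sterol branch it was -0.013, 0.037 and -0.023 on control and -0.047, -0.013 and -0.017 on knockdown arrays. The fatty acid medians of the groups were thus apart, with knockdown replicate 3 nearest the controls, while the sterol medians overlapped. The sterol median minus the fatty acid median was 0.005, 0.007 and -0.015 on control and 0.083, 0.107 and 0.060 on knockdown arrays. The median of all genes stayed between -0.023 and 0.003 on the 6 arrays. Under the 15 other processing settings the fatty acid median remained below 0 (-0.40 to -0.084), while the sterol median was 0.0038 after cyclic loess and below 0 under the others.

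**Figure D2:**
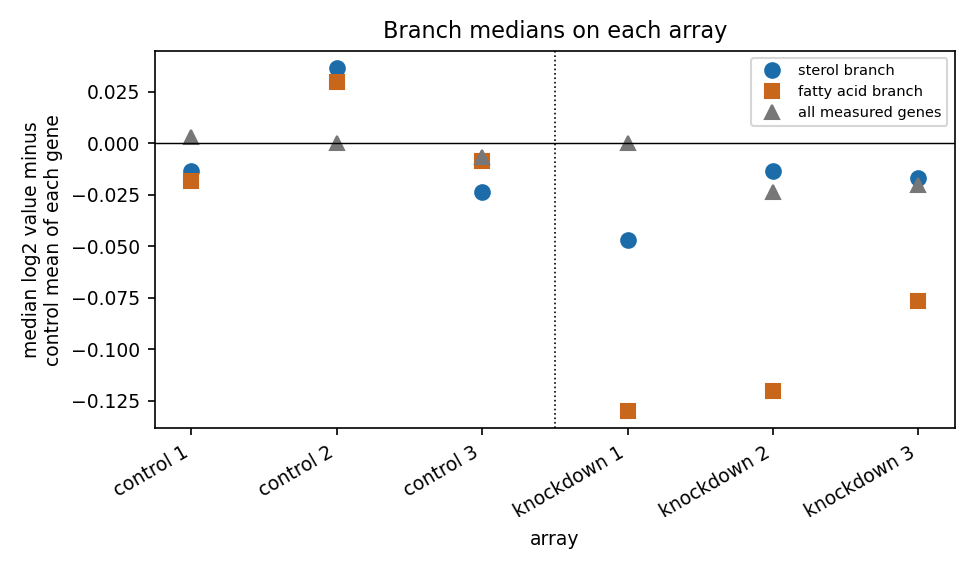
Median over each branch of the log2 value minus the gene's control mean (vertical axis) on each of the 6 arrays, with all measured genes as grey triangles. The fatty acid branch sits at -0.130 to -0.077 on the knockdown arrays, below its control values, whereas the sterol branch (-0.047 to -0.013) overlaps its control values.

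The share of members called was read against all genes under the other settings too. With probe sets averaged 9 of 31 members passed, against 13.8% of all genes, and without probe sets of the suffixes _s_at and _x_at 8 of 26, against 11%. After cyclic loess it was 6, against 12.1%. With trend and robust eBayes 14 passed, against 19.3%, and among genes above the median signal 14 of 30, against 34.9%. Without variance moderation (an ordinary t-test in place of eBayes) 4 passed, against 7.25%, and they were mostly other genes. INSIG1 kept its call, and MVD, ACLY and ACACA gained one. HMGCS1, STARD4, ACSS2, ME1, SREBF1 and GPAM lost theirs (ordinary t-test adjusted p from 0.0516 to 0.134). On leaving out control replicate 1, 2 or 3, 4 members passed each time, against 7.34%, 6.09% and 6.94% of all genes. On leaving out knockdown replicate 1, 2 or 3, 5 members passed each time, against 8.69%, 6.75% and 8.56%.

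**Figure D3:**
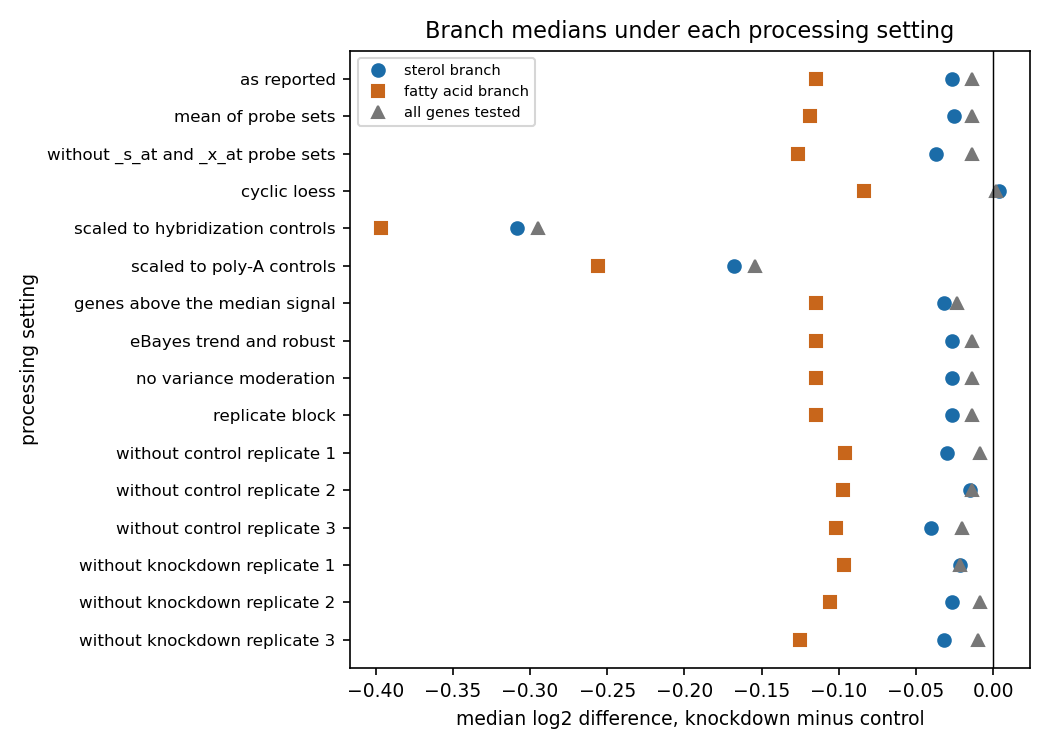
Median log2 difference of knockdown minus control (horizontal axis) over the sterol branch, the fatty acid branch and all genes tested, under each processing setting (vertical axis). The fatty acid median lies left of the sterol median under each setting, by 0.062 to 0.094, and both move with all genes when arrays are scaled to spiked controls; after cyclic loess the sterol median lies at 0.0038.

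Among the regulators INSIG1 rose, SREBF1 fell and SREBF2 did not pass the test. INSIG1, the endoplasmic reticulum protein that retains SCAP, read 8.70, 8.69 and 8.62 on control arrays and 8.92, 8.97 and 8.92 on knockdown arrays. Every knockdown array was above every control array, and INSIG1 rose by 0.27 ± 0.040 log2 units (SE, limma adjusted p = 0.00603), or -0.015 when scaled to the hybridization controls. Its 3 probe sets all passed, at 0.24 to 0.33. SREBF1, the gene of the lipogenic factor, read 8.69, 8.83 and 8.78 on control and 8.50, 8.43 and 8.51 on knockdown arrays. The groups were apart, and SREBF1 fell by 0.29 ± 0.048 (SE, limma adjusted p = 0.00959). Of its other probe sets, 1 was at -0.44 and passed (adjusted p = 0.0101 in the limma fit over all probe sets), and 1 was at -0.25 and did not (adjusted p = 0.0976). SREBF2 read 7.03, 7.03 and 7.09 on control and 6.98, 7.10 and 7.03 on knockdown arrays, so the groups overlapped. Its difference was -0.01, with a 95% confidence interval of -0.12 to 0.09, and its other probe sets gave 0.12 and 0.14, neither past the threshold.

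STARD4, a carrier that moves cholesterol between membranes, had the largest rise of the members. It read 6.74, 6.92 and 6.92 on control and 7.26, 7.29 and 7.13 on knockdown arrays. Even the lowest knockdown array was above the highest control array, and the rise was 0.37 ± 0.065 (SE, limma adjusted p = 0.0117), or 0.09 and not called when scaled to the hybridization controls. Of its 5 probe sets, 4 passed, at 0.30 to 0.55. The fifth, at -0.17, did not pass and had the lowest signal of the 5 (control mean 3.90), within the Tag range.

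**Figure D4:**
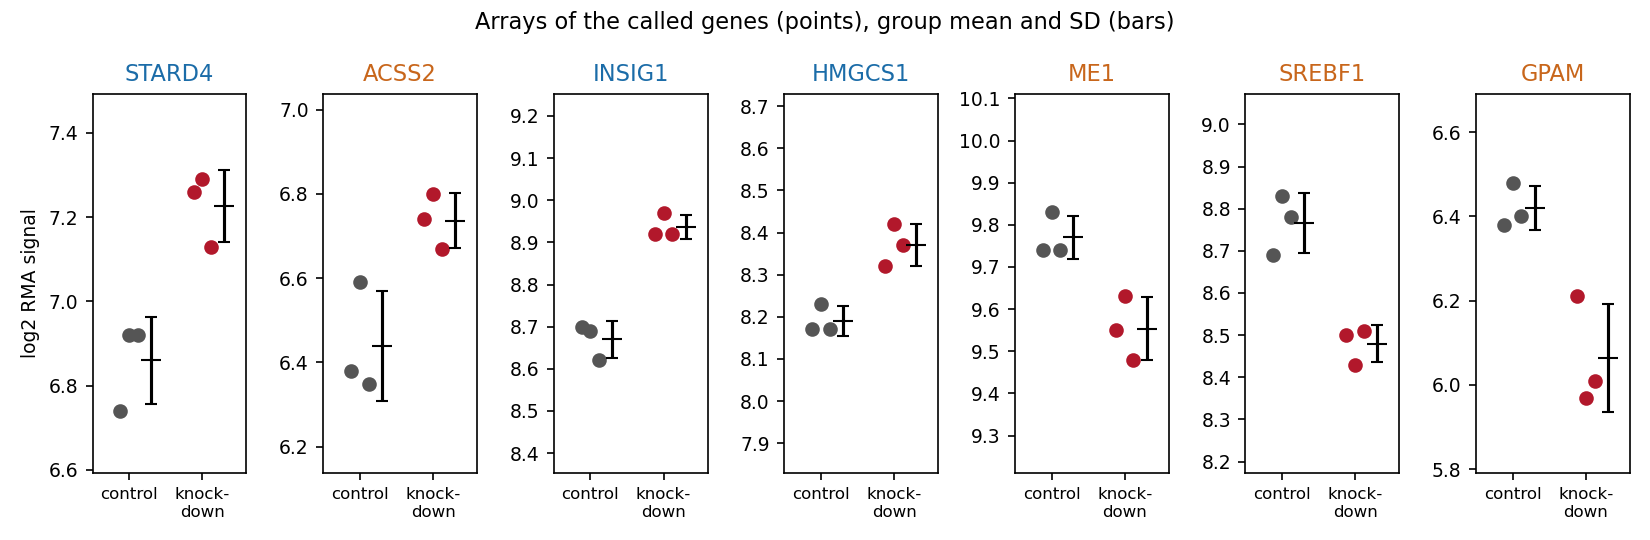
Log2 RMA signal (vertical axis, spanning 0.9 units in each panel) on the 3 control (grey) and 3 knockdown (red) arrays for the 7 genes that passed the test, with group mean and SD beside the points; panel titles are blue for the sterol and orange for the fatty acid branch. In each panel the groups do not overlap; knockdown STARD4 values run from 7.13 to 7.29 against 6.74 to 6.92, and GPAM from 5.97 to 6.21 against 6.38 to 6.48.

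In the mevalonate steps, which build isoprenoid units from acetyl-CoA, 1 of 7 genes rose and 0 fell (14.3% called, against 12.6% of all genes). At an unadjusted limma p under 0.05, 2 were higher and 2 lower. HMGCS1, the synthase that makes HMG-CoA, read 8.17, 8.23 and 8.17 on control and 8.32, 8.42 and 8.37 on knockdown arrays. The groups were apart by a narrow margin, and HMGCS1 rose by 0.18 ± 0.042 (SE, limma adjusted p = 0.0315), or -0.10 when scaled to the hybridization controls. Its other probe set gave 0.05 (adjusted p = 0.604 in the limma fit over all probe sets), and the call was lost on averaging the probe sets (0.12, adjusted p = 0.0961) and on leaving out any 1 of the 3 control arrays or of knockdown replicates 2 and 3 (adjusted p from 0.0637 to 0.101). ACAT2, the thiolase that makes acetoacetyl-CoA, read 9.54, 9.57 and 9.48 on control and 9.39, 9.44 and 9.42 on knockdown arrays. Knockdown values were all lower, but the difference of -0.11 ± 0.040 did not pass (SE, limma adjusted p = 0.116). The kinases MVK and PMVK were at -0.05 and -0.15, and the decarboxylase MVD at 0.10. The isomerase IDI1 and the prenyl synthase FDPS were at -0.08 and -0.04. None of these 5 passed.

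Of the 9 measured genes that carry squalene to cholesterol, 0 rose and 0 fell, against 12.6% of all genes called. At an unadjusted limma p under 0.05 the numbers were 2 and 1. Values ran from -0.12 for LSS, the cyclase that makes lanosterol, to 0.17 for the reductase HSD17B7. SQLE, which oxidizes squalene, was at -0.03, with a 95% interval of -0.11 to 0.06. The demethylation genes MSMO1 and NSDHL were at 0.15 and -0.08, and the reductase TM7SF2 at 0.11. EBP and SC5D, which move and add a double bond in the sterol ring, were at -0.03 and -0.09. DHCR7, the reductase of the last step, read 8.56, 8.64 and 8.50 on control and 8.39, 8.49 and 8.50 on knockdown arrays. The groups overlapped at 8.50, and its difference was -0.11 ± 0.051 (SE, limma adjusted p = 0.237). The highest upper bound of the 9 intervals was 0.33, for HSD17B7, within the interval of STARD4 (0.21 to 0.52). For HSD17B7, MSMO1 and TM7SF2 (upper bounds 0.33, 0.29 and 0.22) the intervals included a rise of the size seen in HMGCS1 (0.18).

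The 3 genes that supply precursors of fatty acid synthesis did not move together. ACSS2, which makes acetyl-CoA from acetate, read 6.38, 6.59 and 6.35 on control and 6.74, 6.80 and 6.67 on knockdown arrays. Control replicate 2 was the highest control array, still below every knockdown array, and ACSS2 rose by 0.30 ± 0.070 (SE, limma adjusted p = 0.0315). Its other probe set rose by 0.43 from a control mean of 4.52, within the Tag range (2.27 to 4.60). Leaving out control replicate 2 kept this call, and leaving out any other array ended it (adjusted p from 0.0515 to 0.103), and scaled to the hybridization controls the difference was 0.02. ME1, the malic enzyme that yields NADPH, read 9.74, 9.83 and 9.74 on control and 9.55, 9.63 and 9.48 on knockdown arrays. The groups were apart, and ME1 fell by 0.22 ± 0.051 (SE, limma adjusted p = 0.0316), with its other probe set at -0.32 and also past the threshold. That call was lost after cyclic loess (-0.19, adjusted p = 0.0552) and when an array other than knockdown replicate 2 was left out (adjusted p from 0.0700 to 0.110). ACLY, which makes acetyl-CoA from citrate, was at -0.09 and did not pass.

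Both core enzymes of fatty acid synthesis had lower knockdown values on every array without passing the test. ACACA, the acetyl-CoA carboxylase, read 8.99, 8.96 and 9.01 on control and 8.87, 8.84 and 8.87 on knockdown arrays. The difference of -0.13 ± 0.036 just missed the threshold (SE, limma adjusted p = 0.0615) and passed when its 3 probe sets were averaged (-0.13, adjusted p = 0.0357). FASN, the fatty acid synthase, read 8.21, 8.22 and 8.12 on control and 8.02, 8.11 and 8.11 on knockdown arrays. The lowest control array lay just above the highest knockdown array, and the difference was -0.10 ± 0.046 (SE, limma adjusted p = 0.203).

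Elongases and desaturases, which lengthen fatty acids and add double bonds, were at -0.13 to -0.02. Of these 5, 0 passed, against 12.6% of all genes, and 1 had an unadjusted limma p under 0.05. SCD, the stearoyl-CoA desaturase, read 11.72, 11.77 and 11.75 on control and 11.68, 11.70 and 11.66 on knockdown arrays at the probe set with the highest signal. Knockdown values were lower by a small step of -0.07 ± 0.036 (SE, limma adjusted p = 0.298), whereas 1 of its 3 other probe sets fell by 0.32 (adjusted p = 0.00765 in the limma fit over all probe sets) and the other two were at -0.12 and did not pass. The mean over the SCD probe sets passed, at -0.16 (limma adjusted p = 0.0422). FADS2, a polyunsaturated fatty acid desaturase, showed the same dependence on the probe set. The probe set with the highest signal, whose suffix _x_at marks probes that may also match similar transcripts, was at -0.13 (limma adjusted p = 0.125). A probe set without that suffix read 8.36, 8.35 and 8.25 on control and 7.71, 7.73 and 8.12 on knockdown arrays, and fell by 0.47 ± 0.10 (SE, adjusted p = 0.0296 in the limma fit over all probe sets). Knockdown replicate 3 was nearest the controls there, as it was at the remaining probe set without it, at -0.32 (adjusted p = 0.0701). With its probe sets averaged FADS2 was at -0.27 and passed (limma adjusted p = 0.0287). FADS1 was at -0.04, ELOVL5 at -0.02 and ELOVL6 at -0.13.

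GPAM, the mitochondrial acyltransferase that starts glycerolipid synthesis, had the largest fall of the members. It read 6.38, 6.48 and 6.40 on control and 6.21, 5.97 and 6.01 on knockdown arrays. Knockdown replicate 1 was the closest to the controls but still below all of them, and GPAM fell by 0.36 ± 0.067 (SE, limma adjusted p = 0.0148). Of its 4 probe sets, 3 passed, at -0.58 to -0.22, although the one at -0.22 had a control mean of 3.22, within the Tag range, and the fourth was at -0.21 (adjusted p = 0.0507 in the limma fit over all probe sets). The call was lost without control replicate 2 (-0.33, adjusted p = 0.0614). Over all 84 probe sets of the members, 10 rose and 9 fell, against 9.85% called in either direction among all 49293.

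**Figure D5:**
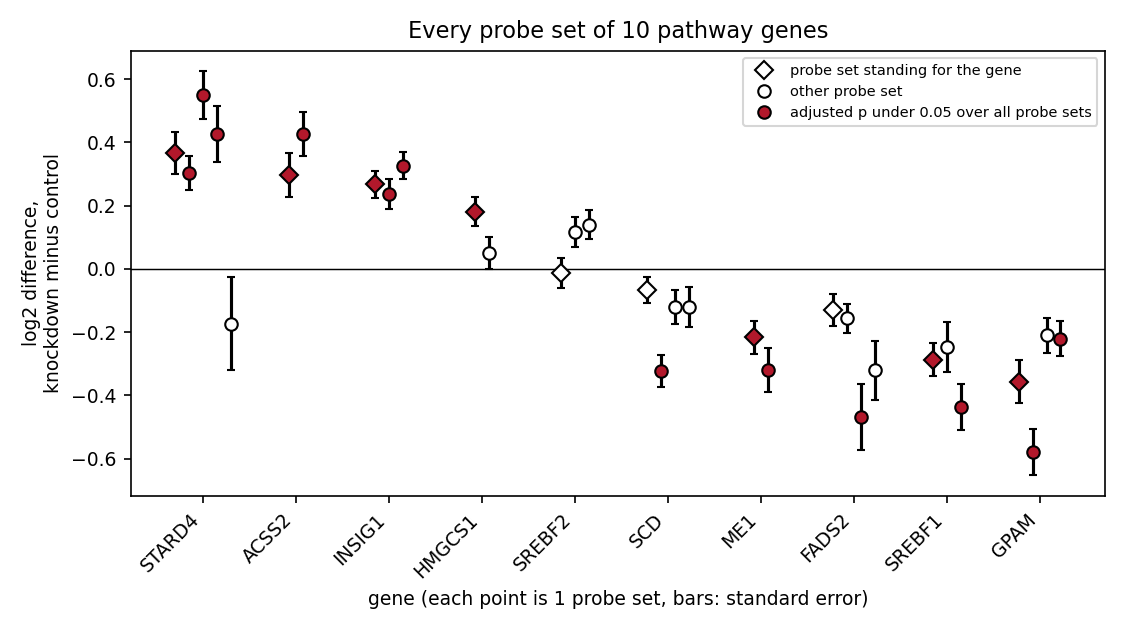
Log2 difference of knockdown minus control (vertical axis) for every probe set of 10 pathway genes, with standard errors; diamonds mark the probe set that stands for the gene, and red marks an adjusted p under 0.05 over all probe sets. STARD4 (0.30 to 0.55 at 4 of 5), INSIG1 (0.24 to 0.33) and GPAM (-0.58 to -0.21) keep their sign at these probe sets, while for FADS2 (-0.47 to -0.13) and SCD (-0.32 to -0.07) the size depends on the probe set; scaled to the hybridization controls, the INSIG1 diamond lies at -0.015.

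Sequences before the start sites of the 7 genes that passed are shown so that their elements can be compared, among them CCAAT, which is bound by NF-Y, a trimeric factor known to work beside SREBP. They were taken from RefSeq on GRCh38.p14, 5′ to 3′ on the gene's strand, as the 220 bases that end just before the outermost listed start. Capitals mark CCAAT (or ATTGG, its reverse), the sterol element core CACNCCAC (or GTGGNGTG) and the E-box CACGTG. The 4 genes that rose come first.
STARD4 (chr5:111512536-111512755, minus strand): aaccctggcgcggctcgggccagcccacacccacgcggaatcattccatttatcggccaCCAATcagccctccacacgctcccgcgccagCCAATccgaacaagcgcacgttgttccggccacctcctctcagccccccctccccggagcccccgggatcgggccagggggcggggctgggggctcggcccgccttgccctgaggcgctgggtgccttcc
INSIG1 (chr7:155297658-155297877, plus strand): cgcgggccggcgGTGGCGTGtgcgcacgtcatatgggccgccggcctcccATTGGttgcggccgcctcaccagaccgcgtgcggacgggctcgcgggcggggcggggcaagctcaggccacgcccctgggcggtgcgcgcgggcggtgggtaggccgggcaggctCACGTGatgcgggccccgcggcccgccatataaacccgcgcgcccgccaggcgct
HMGCS1 (chr5:43313413-43313632, minus strand): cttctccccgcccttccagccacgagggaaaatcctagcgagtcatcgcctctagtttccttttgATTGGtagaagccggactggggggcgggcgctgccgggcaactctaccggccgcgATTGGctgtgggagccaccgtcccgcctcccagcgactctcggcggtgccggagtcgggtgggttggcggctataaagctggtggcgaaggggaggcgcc
ACSS2 (chr20:34874769-34874988, plus strand): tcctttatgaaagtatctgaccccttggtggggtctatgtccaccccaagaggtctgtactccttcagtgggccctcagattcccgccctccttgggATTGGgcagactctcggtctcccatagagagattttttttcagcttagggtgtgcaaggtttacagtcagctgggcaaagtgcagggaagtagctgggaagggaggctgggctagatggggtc
The 3 genes that fell follow.
SREBF1 (chr17:17836987-17837206, minus strand): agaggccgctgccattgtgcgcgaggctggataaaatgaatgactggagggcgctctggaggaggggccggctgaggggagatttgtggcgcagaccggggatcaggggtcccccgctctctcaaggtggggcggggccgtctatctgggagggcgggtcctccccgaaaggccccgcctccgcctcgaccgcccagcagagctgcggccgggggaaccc
GPAM (chr10:112183766-112183985, minus strand): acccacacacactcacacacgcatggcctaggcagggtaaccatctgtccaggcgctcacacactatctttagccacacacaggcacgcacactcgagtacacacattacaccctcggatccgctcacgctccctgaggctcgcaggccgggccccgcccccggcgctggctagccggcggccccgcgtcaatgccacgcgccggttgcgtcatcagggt
ME1 (chr6:83431052-83431271, minus strand): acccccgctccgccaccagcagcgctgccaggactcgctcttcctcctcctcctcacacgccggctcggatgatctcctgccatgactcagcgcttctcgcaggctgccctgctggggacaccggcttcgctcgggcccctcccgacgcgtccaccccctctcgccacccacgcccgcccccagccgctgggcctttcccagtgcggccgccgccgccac
Each of the 4 genes that rose has CCAAT on one strand or the other, with 2 copies in STARD4 and in HMGCS1, and 0 of the 3 genes that fell has it. INSIG1 is the only one of the 7 with a sterol element core or an E-box in these windows. No test was made on these 7 genes, and the division holds for this choice of start sites, probe sets and fit only. Other listed starts of a gene were not searched. SCD and ACLY, each with 2 CCAAT copies in the 250 bases before the start, were called lower under other settings: SCD with probe sets averaged (limma adjusted p = 0.0422), and SCD and ACLY with trend and robust eBayes (adjusted p = 0.0199 and 0.00231).

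The motifs were counted in the 250 bases before the start on both strands, in 28 members and 14425 measured genes with a listed promoter (ACAT2, FASN and SQLE had none listed). CCAAT was found in 18 of the 28 members (64.3%) and in 34.6% of all promoters. By branch it was in 14 of 17 sterol genes and 4 of 11 fatty acid genes. The members with it had a median log2 difference of -0.017, and those without it -0.13. Over all genes the element was about as common among those that rose (33.5%) as among those that did not pass (34.3%), and it was in 39.4% of those that fell. GGGCGG, the GC box, was in 24 of 28 members and in 57.0% of all promoters. The sterol element core was in 3 members, INSIG1, SCD and SREBF2, and in 4.91% of all promoters. With a T before the core (TCACNCCAC, a match that lies within the core matches) it was in SREBF2 alone, and in 0.874% of all promoters. The E-box was in ELOVL5, INSIG1 and SC5D, and in 7.79% of all promoters. These are matches of letters, not sites shown to be bound.

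Of 12 measured genes that act on or with SREBP 2 were called, against 12.6% of all genes. Of 7 measured genes of SREBP retention and cleavage, 1 rose and 0 fell (1 was lower at an unadjusted limma p under 0.05). The gene that rose was INSIG2, another retention protein, by 0.27 ± 0.053 (SE, limma adjusted p = 0.0178), or -0.015 when scaled to the hybridization controls. It no longer passed with its probe sets averaged (0.13, adjusted p = 0.0837), nor without any 1 control array or knockdown replicate 3 (adjusted p from 0.0502 to 0.0623). SCAP and the proteases MBTPS1 and MBTPS2 were at -0.02, -0.03 and -0.04. Of 5 cofactor genes 0 rose and 1 fell. At an unadjusted limma p under 0.05 the numbers were 0 and 3 (NFYA, NFYB and CREBBP), against 2009 and 2805 of all 18132 genes. The gene past the threshold was NFYA, the sequence-reading subunit of NF-Y, which fell by 0.24 ± 0.056 (SE, limma adjusted p = 0.0312). Without any 1 array other than knockdown replicate 2 it no longer passed (adjusted p from 0.0565 to 0.100).

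Among 20 other genes of sterol and lipid synthesis 1 rose and 2 fell, and these 3 of 20 (15%) are near the 12.6% called among all genes. ACSL4, which activates long-chain fatty acids, rose by 0.33 ± 0.043 (SE, limma adjusted p = 0.0033), or 0.05 when scaled to the hybridization controls. TMEM97, an endoplasmic reticulum protein controlled by sterols, read 9.94, 9.99 and 9.94 on control and 9.66, 9.67 and 9.69 on knockdown arrays. These groups lay far apart for their spread, and TMEM97 fell by 0.28 ± 0.036 (SE, limma adjusted p = 0.00315). FABP5, a fatty acid-binding protein, fell by 0.15, which no longer passed without any single array (limma adjusted p from 0.0688 to 0.103).

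Of 11 measured genes of sterol export and handling 2 rose and 0 fell, also 0 at an unadjusted limma p under 0.05. These 2 of 11 (18.2%) stand against 12.6% called among all genes. ABCA1, the transporter that exports cholesterol and a target of the oxysterol receptors, read 7.17, 7.20 and 7.10 on control and 7.56, 7.63 and 7.57 on knockdown arrays. Its groups did not overlap, and it rose by 0.43 ± 0.043 (SE, limma adjusted p = 0.000971), more than any member of the SREBP list at the probe sets standing for the genes. Without the _s_at and _x_at probe sets STARD4 rose more (0.55 against 0.43). Scaled to the hybridization controls, ABCA1 rose by 0.15 without a call. LIPA, the lysosomal lipase that frees cholesterol from its esters, rose by 0.15, or -0.13 when so scaled, and no longer passed without any single array (limma adjusted p from 0.0655 to 0.126). CH25H, an interferon-induced enzyme that makes an oxysterol inhibitor of SREBP processing, was at background on both groups, with 14 of the 17 Tag probe sets above its control mean of 2.43 and a difference of -0.05 (limma adjusted p = 0.723). Of 9 measured genes of fatty acid oxidation 0 rose and 0 fell in the limma fit, 0 had an unadjusted p under 0.05, and values ran from -0.10 to 0.07.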

How the data were processed

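RNA of A549 cells was measured on 6 arrays, 3 control and 3 knockdown, grouped by title. The authors deposited log2 values of 49372 probe sets. The submitters' processing notes name RMA, which corrects background, quantile-normalizes arrays and summarizes probes. Its software and annotation were not given in the sources used here. Differences are therefore relative to the typical gene. Values near background understate change, and the number of arrays limits the precision.

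Probe sets were named from the platform annotation (44994 with 1 symbol, 1832 with several, 2546 with none), with symbols updated by gene identifier for 44967. The probe set with the highest mean over the 6 arrays stood for a gene. The knockdown minus control difference was fitted in R 4.3.3 by limma 3.58.1 with lmFit and eBayes (2-sided, no covariate), with Benjamini-Hochberg adjustment across 18132 genes, or over 49293 probe sets where stated. Confidence intervals are at 95% from the moderated fit. The fit was tested on simulated data with 200 changed genes. It called 12 of 67 changes of 0.2 log2 units (17.9%) and 66 of 67 changes of 0.4 (98.5%). Changes near 0.2 were thus mostly missed there. The simulation gave 148 calls in all, against 2285 in the real arrays. The adjustment was therefore stricter in the simulation, and its shares need not hold for the real arrays.

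The members and gene lists were chosen with earlier results of these data known. Values in every sample are given for members past the threshold, SREBF1, SREBF2, INSIG1, ACAT2, HMGCS1, DHCR7, ACACA, FASN and SCD, and from the other lists up to the 3 largest called changes in each direction and CH25H are named. The second FADS2 probe set, and TMEM97 and ABCA1 for per-array values, were chosen after their values were seen. Alternatives covered the probe set rule, normalization, a filter on low signal, the variance model, a replicate block and leaving out each array. Figures were drawn with matplotlib 3.10.9.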

Additional observations from a re-analysis of the deposited data

How the results depend on the processing

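The count of sterol genes called higher was 3, and 0 and 1 when scaled to the hybridization and poly-A controls. The count called lower was 0, and 12 under either scaling, 3 with genes above the median signal only, 2 with trend and robust eBayes, and 0 to 1 on leaving out each array. The 1 fatty acid gene called higher was lost under both scalings (0) and without variance moderation (0), and the count was 0 to 1 on leaving out each array. The 3 called lower became 6 with probe sets averaged, 11 under either scaling, 6 with genes above the median signal and 7 with trend and robust eBayes, and 1 to 3 on leaving out each array, the 1 being without control replicate 2. The median of the sterol branch turned from -0.027 to 0.0038 after cyclic loess and moved to -0.31 and -0.17 when scaled to the hybridization and poly-A controls. The fatty acid median moved from -0.115 to -0.084, -0.40 and -0.26 under these 3. The sterol minus fatty acid median was 0.088, 0.062 with the enzymes only and 0.062 to 0.093 on leaving out each array. Scaled to the hybridization controls, HMGCS1 (-0.10), INSIG1 (-0.015), INSIG2 (-0.015) and LIPA (-0.13) turned below 0 without a call. Scaling subtracts 1 value from every gene of an array, which accounts for the shift, and the cause of the other changes was not tested. Scaled to the poly-A controls INSIG1 (0.13), INSIG2 (0.13), ACSS2 (0.16), HMGCS1 (0.04) and LIPA (0.01) lost their calls. Deviations from the group means correlated between same-numbered arrays at 0.093, 0.062 and -0.007. Different-numbered arrays were not set beside them, so these values do not settle whether the arrays were paired. With the replicate block 2 sterol genes rose and 0 fell, and 1 fatty acid gene rose and 3 fell, with HMGCS1 at a limma adjusted p of 0.0514. Over all genes 818 rose and 747 fell with the block, against 1046 and 1239 without it. Signal over background limits 1 probe set each of STARD4, GPAM, ACSS2, ELOVL6 and MSMO1, whose control means lay within the Tag range.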
